A study of Mus musculus with 6 samples.

Results

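The integrin and cadherin genes of mouse embryonic fibroblasts were followed across 3 genotypes, each in mock cells and in cells given oncogenes. Every gene whose name on the array is that of an integrin alpha subunit (Itga), an integrin beta subunit (Itgb) or a numbered cadherin (Cdh) was taken. The name pattern found 49 genes, 26 integrins and 23 cadherins. Of these, 42 (24 integrins and 18 cadherins) were flagged by the scanner software as well above background on 1 array or more, and form the group described here, out of 16674 named genes that met the same filter. The 7 others, well above background on no array, were Cdh5, Cdh7, Cdh19, Cdh23, Cdh24, Itgad and Itgae. Their highest levels lay between -6.34 (Cdh19) and -4.32 (Itgad). Among the 18 cadherins, 5 are classical type I and 9 classical type II cadherins. Cdh13, Cdh16, Cdh17 and Cdh26 share the name but belong to neither classical type.

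The study asked how clock genes bear on oncogenic cells, with Per2 at its centre. Fibroblasts of strain ICR were wild type, Clk/Clk (the Clock mutant) or Per2m/m, and each genotype was either mock transfected or transfected with a vector expressing H-Ras and SV40T. H-Ras is a growth-signalling GTPase and SV40T the large T antigen of simian virus 40, which together transform fibroblasts. Each of these 6 groups is 1 array hybridised with total RNA labelled with Cy3, so no comparison within a genotype has a replicate check, and nothing in the labels says how many cultures or embryos lie behind an array.

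Integrins are cell surface receptors made of an alpha and a beta subunit. The pair sets which matrix protein or cell surface ligand is bound, and the short tails are tied to actin through talin, kindlin and other adaptors. Cadherins are calcium-dependent receptors through which neighbouring cells hold on to each other, with catenins linking their tails to actin. Fibroblasts are known for fibronectin, collagen and laminin receptors and for N-cadherin and cadherin-11, whereas epithelia are known for E-cadherin and the alpha-6 beta-4 integrin.

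Levels below are log2 processed signals minus the log2 of the array's 75th percentile, so 0 is the 75th percentile of that array, and each level is that of the gene's brightest probe. A response is the level in transfected cells minus the level in mock cells of the same genotype, and levels that go from one value to another go from mock to transfected. A gene is counted as higher or lower when the difference reaches 2-fold and the brighter array is well above background. An array on which a probe is not well above background is called dim for that gene. A fold against a dim array is given as "at least", computed against the lowest level at which probes of that array were well above background, or the dim probe's own level if that was higher.

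On the 6 arrays, 49.3% to 57.3% of non-control spots were well above background, the lowest share on the transfected Per2m/m array. No spot was saturated, and repeat spots of a probe differed with a median SD of 0.049 to 0.060 (log2). The transfected Per2m/m array stood apart, with r of 0.852 to 0.890 to the others over all genes, where the other arrays had median correlations of 0.931 to 0.945. Xist, Ddx3y and Eif2s3y, all well above background in mock Per2m/m cells at -0.53, -0.05 and -0.81, were dim on that array, at least 16.6-, 23.2- and 13.7-fold lower. Xist was also dim on both Clk/Clk arrays (-6.79 and -6.63) and well above background on both wild type arrays (-1.03 and -0.95). Ddx3y and Eif2s3y were well above background on all of these. The part of the sex or origin of the cells was not tested, either in the genotype differences or in the responses of Per2m/m cells. The labels do not say whether both Per2m/m arrays come from the same cultures. The source label of the transfected Per2m/m array names H-Ras but not SV40, while its other labels name both. Both Per2m/m arrays lay in the second row of the slide and the other 4 in the first, so slide row and the Per2m/m genotype cannot be told apart. All 10 fibroblast markers were well above background on the 3 mock arrays and on the transfected Clk/Clk array, and 9 on the other 2, where Lum was dim. After transfection of Per2m/m cells 6 of the 10 were at least 2-fold lower (20.8% of all genes) and none higher (18.7% of all genes). Among the 6 were Thy1 (217-fold) and Col3a1 (12.0-fold). In wild type cells 4 were lower (11.8% of all genes) and 1 higher (7.5% of all genes), with Dcn 58.2-fold lower and Pdgfra 4.21-fold higher. In Clk/Clk cells 1 was lower (4.12% of all genes) and 1 higher (3.74% of all genes). Their part in the integrin and cadherin values was not tested. In bulk RNA, fewer cells of a type and less RNA per cell cannot be told apart.

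The start sites of 3 genes that the results turn on are shown first: Itgb7, the single member higher in transfected cells of all 3 genotypes, Itga11, the single integrin lower in all 3, and Itgb8, above background on 1 array only. Each line gives the 250 bases upstream of the start site, 5′ to 3′ on the gene's strand, from RefSeq (build GRCm38.p6), with capitals for the E-box core CANNTG, the general site of basic helix-loop-helix factors to which CLOCK belongs. The stretches lie at chr15:102231936-102232185 on the minus strand (Itgb7), chr9:62677605-62677854 on the plus strand (Itga11) and chr12:119238277-119238526 on the minus strand (Itgb8).
Itgb7: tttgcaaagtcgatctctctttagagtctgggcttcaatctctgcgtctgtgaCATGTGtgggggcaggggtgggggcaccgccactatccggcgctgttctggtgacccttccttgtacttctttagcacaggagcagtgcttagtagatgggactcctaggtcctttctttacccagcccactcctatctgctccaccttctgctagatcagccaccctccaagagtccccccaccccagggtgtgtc
Itga11: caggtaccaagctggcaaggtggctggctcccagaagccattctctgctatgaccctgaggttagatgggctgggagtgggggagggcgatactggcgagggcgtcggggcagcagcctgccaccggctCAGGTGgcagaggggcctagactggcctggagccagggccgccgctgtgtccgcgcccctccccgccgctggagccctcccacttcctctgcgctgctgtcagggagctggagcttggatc
Itgb8: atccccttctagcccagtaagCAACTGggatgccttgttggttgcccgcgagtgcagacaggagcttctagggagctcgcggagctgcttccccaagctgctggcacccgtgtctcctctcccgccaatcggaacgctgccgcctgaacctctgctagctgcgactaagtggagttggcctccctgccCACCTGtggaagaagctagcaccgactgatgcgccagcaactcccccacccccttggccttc
The promoter table matched 28 of the 42 members, with 30 start sites. CANNTG, which reads the same on both strands as a pattern, was present in 22 of 30 member promoters (73.3%) and in 66.2% of all 32851 promoters of this length. CACGTG, the form of it bound by the CLOCK complex, was in 1 (Cdh15), or 3.33%, against 6.02% of all. The AP-1 site TGANTCA, searched on both strands, was also in 1 (Itgax), or 3.33%, against 6.75% of all. These shares describe letters in a window, not binding.

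After transfection, integrins and cadherins stood lower more often than higher in wild type and Per2m/m cells, and few passed 2-fold in Clk/Clk cells. In wild type cells 17 of the 42 were at least 2-fold lower (11.8% of all genes were) and 1, Itgb7, was higher (7.5% of all genes). In Per2m/m cells 22 were lower (20.8% of all genes) and 8 higher (18.7% of all genes). In Clk/Clk cells 3 were lower (4.12% of all genes) and 4 higher (3.74% of all genes). The median response of the members stood at -0.95 for wild type, 0.08 for Clk/Clk and -1.79 for Per2m/m cells, against 0.00, 0.02 and 0.12 over all genes. A member bright on a single array had to differ somewhere, so these counts were also taken over the 20 members well above background on every array. Of those, 7 were lower in wild type cells (6.10% of 12319 genes with that property), 8 in Per2m/m cells (13.8%) and 1 in Clk/Clk cells (2.16%). In the same order, 1 (6.91%), 4 (19.0%) and 1 (1.76%) were higher. The medians were -0.75, -0.72 and -0.11, against 0.09, 0.21 and 0.01 over genes with a probe well above background on every array. The wild type count of 17 was 10 with another background correction (normexp) and 11 with arrays scaled to their medians, and with normexp the median response in Per2m/m cells was -0.53 rather than -1.79. Normexp left 17 of 55 responses short of 2-fold. These were Cdh4, Cdh15, Cdh17, Itga1, Itga4, Itgb4 and Itgb6 in wild type cells (-0.95 to -0.38), Cdh4, Cdh10, Cdh13, Cdh20 and Cdh22 in Clk/Clk cells (-0.77 to 0.66), and Cdh9, Cdh15, Cdh16, Itga2 and Itga2b in Per2m/m cells (-0.76 to 0.92).

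**Figure D1:**
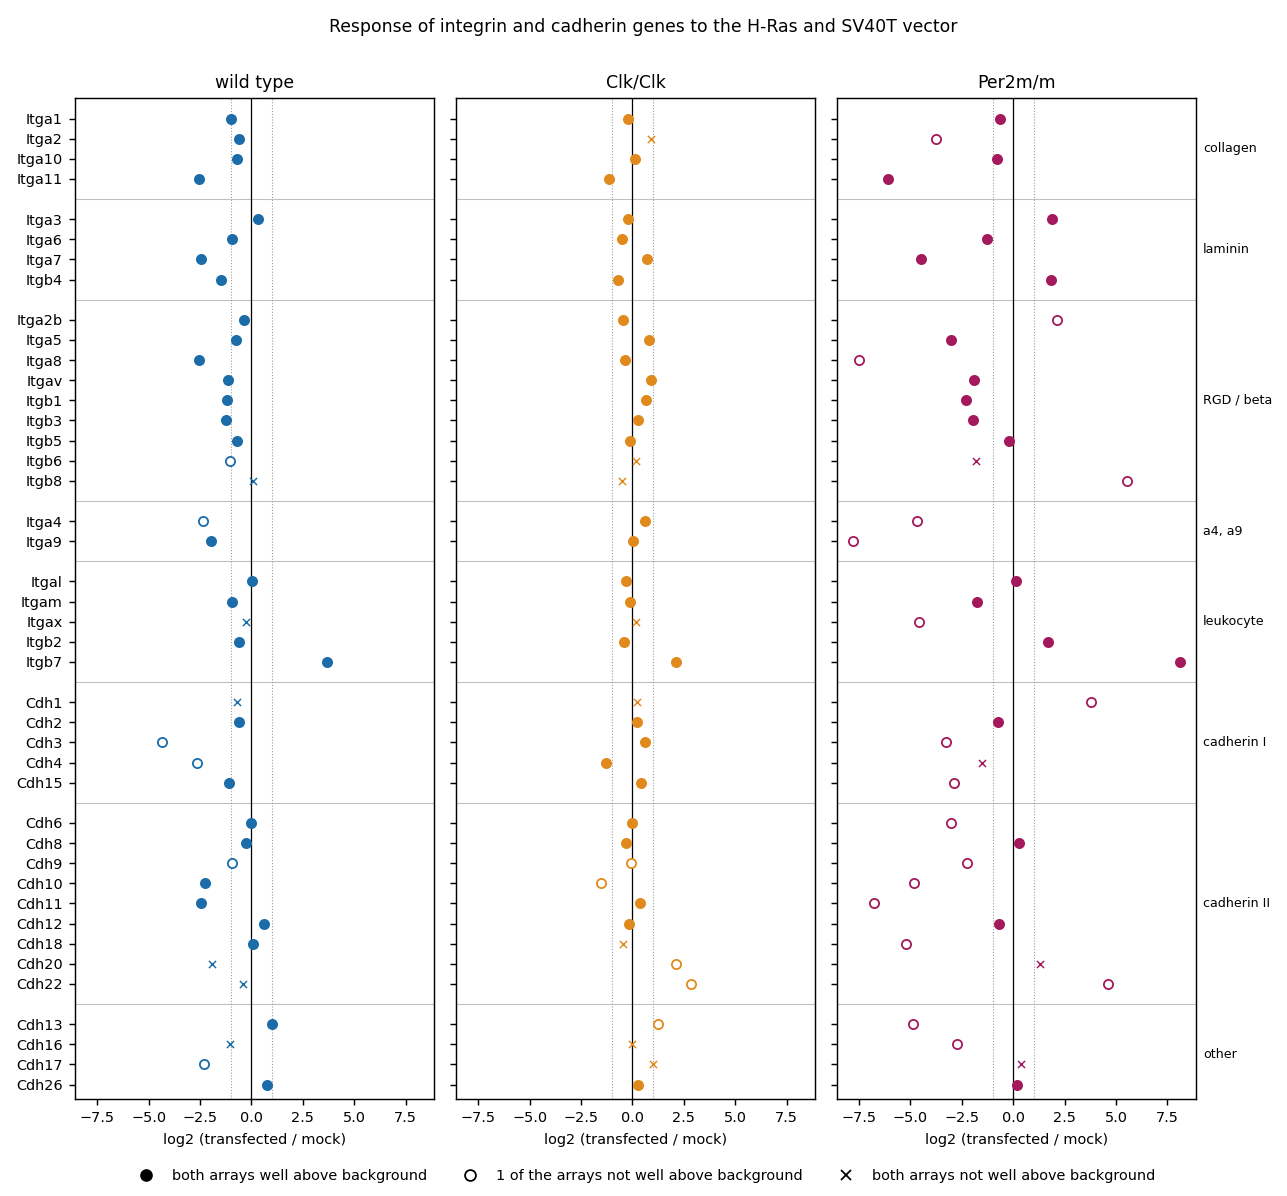
Response of each of the 42 genes (transfected over mock, log2), 1 panel per genotype, grouped by the subunit or cadherin type; dotted lines mark 2-fold, open circles have 1 dim array and crosses 2 dim arrays. Among the circles, 17 and 22 genes lie past the left dotted line in wild type and Per2m/m cells, and 3 in Clk/Clk cells.

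Both wild type and Per2m/m cells, which share no array, had 12 of the 42 members lower (6.91% of all genes). They were Itga4, Itga7, Itga8, Itga9, Itga11, Itgav, Itgb1, Itgb3, Cdh3, Cdh10, Cdh11 and Cdh15. Itgb7 was the 1 member higher in both (3.1% of all genes). In both wild type and Clk/Clk cells Cdh4, Cdh10 and Itga11 were lower (0.948% of all genes) and Itgb7 higher (0.33% of all genes). Across all 3 genotypes, Cdh10 and Itga11 were lower (0.564% of all genes) and Itgb7 higher (0.102% of all genes). In all, 35 members passed 2-fold in at least 1 genotype (49.2% of all genes). The 7 others were Cdh2, Cdh8, Cdh12, Cdh26, Itga10, Itgal and Itgb5, well above background on every array with responses between -0.77 (Itga10, Per2m/m) and 0.75 (Cdh26, wild type).

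Members were fewest above background in transfected Per2m/m cells. Their number went from 36 (mock) to 30 (transfected) in wild type, from 31 to 32 in Clk/Clk and from 34 to 24 in Per2m/m cells. Cadherins made up most of the difference in Per2m/m cells, with 13 in mock and 6 in transfected cells, against 21 and 18 integrins.

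Among the 4 collagen-binding alpha subunits, all partners of beta-1, Itga11 had the widest range. Itga11, the alpha-11 receptor for fibrillar collagen of fibroblasts, went from 6.50 in mock to 3.95 in transfected wild type cells, from 3.25 to 2.12 in Clk/Clk and from 5.59 to -0.48 in Per2m/m cells. It was therefore lower in transfected cells of each genotype, 5.84-fold, 2.19-fold and 67.5-fold, and among mock cells lowest in Clk/Clk. Itga1, another collagen receptor subunit, went from 0.10 to -0.90 in wild type, from -0.88 to -1.11 in Clk/Clk and from -1.12 to -1.76 in Per2m/m cells. Only its wild type response of -1.01 passed 2-fold, and that was -0.93 in the authors' deposited table and -0.69 with median scaling. Itga2, the alpha subunit of a platelet and epithelial collagen receptor, went from -4.37 to -4.98 in wild type, from -6.95 to -6.06, both dim, in Clk/Clk and from -3.12 to a dim -6.91 in Per2m/m cells. It was at least 2.76-fold lower in transfected Per2m/m cells. Itga10 passed 2-fold in no genotype.

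Of the 4 laminin-binding subunits, taken at their brightest probes, 2 were lower (20.8% of all genes) and 2 higher (18.7% of all genes) in Per2m/m cells. The 2 lower were Itga7 and Itga6, and the Itga6 probes differed in direction. Itga7, the laminin receptor subunit best known in muscle, went from 2.10 to -0.34 in wild type, from 1.36 to 2.08 in Clk/Clk and from 1.76 to -2.75 in Per2m/m cells. It was 5.40-fold lower in wild type and 22.7-fold lower in Per2m/m cells, while its 3 mock levels differed by less than 2-fold. Itga3, the alpha subunit of the laminin-332 receptor, went from -2.23 to -1.92 in wild type, from -0.67 to -0.89 in Clk/Clk and from -1.13 to 0.74 in Per2m/m cells. Its level in transfected Per2m/m cells was 3.65-fold over mock, the highest of the 6. Itgb4, the beta subunit that ties basal epithelial cells to laminin in hemidesmosomes, went from -2.08 to -3.57 in wild type, from -2.23 to -2.91 in Clk/Clk and from -2.22 to -0.38 in Per2m/m cells. It was 2.81-fold lower after transfection in wild type cells and 3.59-fold higher in Per2m/m cells, from nearly equal mock levels.

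Itga6, the alpha partner of both beta-4 and beta-1 in laminin receptors, gave answers that differed between its probes. The brighter probe went from 3.91 to 2.96 in wild type, from 4.23 to 3.73 in Clk/Clk and from 5.01 to 3.75 in Per2m/m cells, lower after transfection in each with a response of -1.26 in Per2m/m cells. The other probe went from 3.33 to 4.54, from 2.22 to 2.73 and from 4.06 to 4.91, higher after transfection in each. On build NCBI37, the coordinates of the array files, the first lies at chr2:71690633-71690692 and the second at chr2:71694756-71694815. Exon and transcript positions of the probes were not analysed here. The mean over both probes put the Per2m/m response at -0.21, so no direction is given for Itga6.

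The group of 9 subunits that bind the RGD sequence of fibronectin and vitronectin, or are the common beta partners, had 5 lower in wild type cells (11.8% of all genes), 5 lower (20.8% of all genes) and 2 higher (18.7% of all genes) in Per2m/m cells, and none past 2-fold in Clk/Clk cells. Itga5, the fibronectin receptor alpha subunit, went from 3.81 to 3.03 in wild type, from 0.77 to 1.56 in Clk/Clk and from 3.51 to 0.48 in Per2m/m cells. It was 8.19-fold lower in transfected Per2m/m cells and moved by less than 2-fold in the other genotypes. Itgb1, its beta partner and that of most members named so far, went from 6.15 to 4.98 in wild type, from 3.95 to 4.60 in Clk/Clk and from 5.81 to 3.49 in Per2m/m cells. Transfected cells were 2.25-fold lower in wild type and 4.98-fold lower in Per2m/m, while Clk/Clk mock cells already lay below both transfected wild type and mock Per2m/m cells.

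Itgav, the alpha subunit shared by the vitronectin receptors, went from 3.01 to 1.87 in wild type, from 1.49 to 2.41 in Clk/Clk and from 3.16 to 1.24 in Per2m/m cells. Its responses were 2.20-fold lower, 1.89-fold higher and 3.78-fold lower. Itgb3, its beta-3 partner, went from 3.00 to 1.74 in wild type, from 1.14 to 1.40 in Clk/Clk and from 3.55 to 1.61 in Per2m/m cells. It was 2.39-fold lower in wild type and 3.84-fold lower in Per2m/m cells, but a second probe gave -0.24 (log2) in Per2m/m cells. With median scaling the wild type responses of Itgav, Itgb1 and Itgb3 were -0.83, -0.86 and -0.94, short of 2-fold. Itgb5, the beta-5 partner of alpha-v, stayed between 4.69 and 5.38 on the 6 arrays.

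Itga8, the alpha subunit that pairs with beta-1 to bind nephronectin, went from 0.26 to -2.28 in wild type, from 2.62 to 2.25 in Clk/Clk and from 0.89 to a dim -6.60 in Per2m/m cells. It was 5.81-fold lower for wild type and at least 44.7-fold lower for Per2m/m cells, and highest in both Clk/Clk arrays. Itgb8, the beta subunit with which alpha-v activates latent TGF-beta, was dim on 5 arrays, at -7.48, -7.42, -6.21, -6.70 and -7.23 in array order (wild type, Clk/Clk, Per2m/m, mock before transfected), and stood at -1.68 in transfected Per2m/m cells. That was at least 9.93-fold over mock, at a probe at chr12:120401278-120401337 (NCBI37). Itga2b, the alpha subunit of the platelet fibrinogen receptor, went from -3.66 to -4.03 in wild type, from -3.41 to -3.88 in Clk/Clk and from a dim -4.88 to -2.74 in Per2m/m cells. It was at least 4.41-fold higher in transfected Per2m/m cells, or 0.92 (log2) with normexp. Itgb6, the epithelial partner of alpha-v, was well above background in wild type mock cells alone (-5.02) and dim elsewhere, at -6.09, -6.75, -6.58, -4.91 and -6.75, and its fold is bounded only at 1.36.

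**Figure D2:**
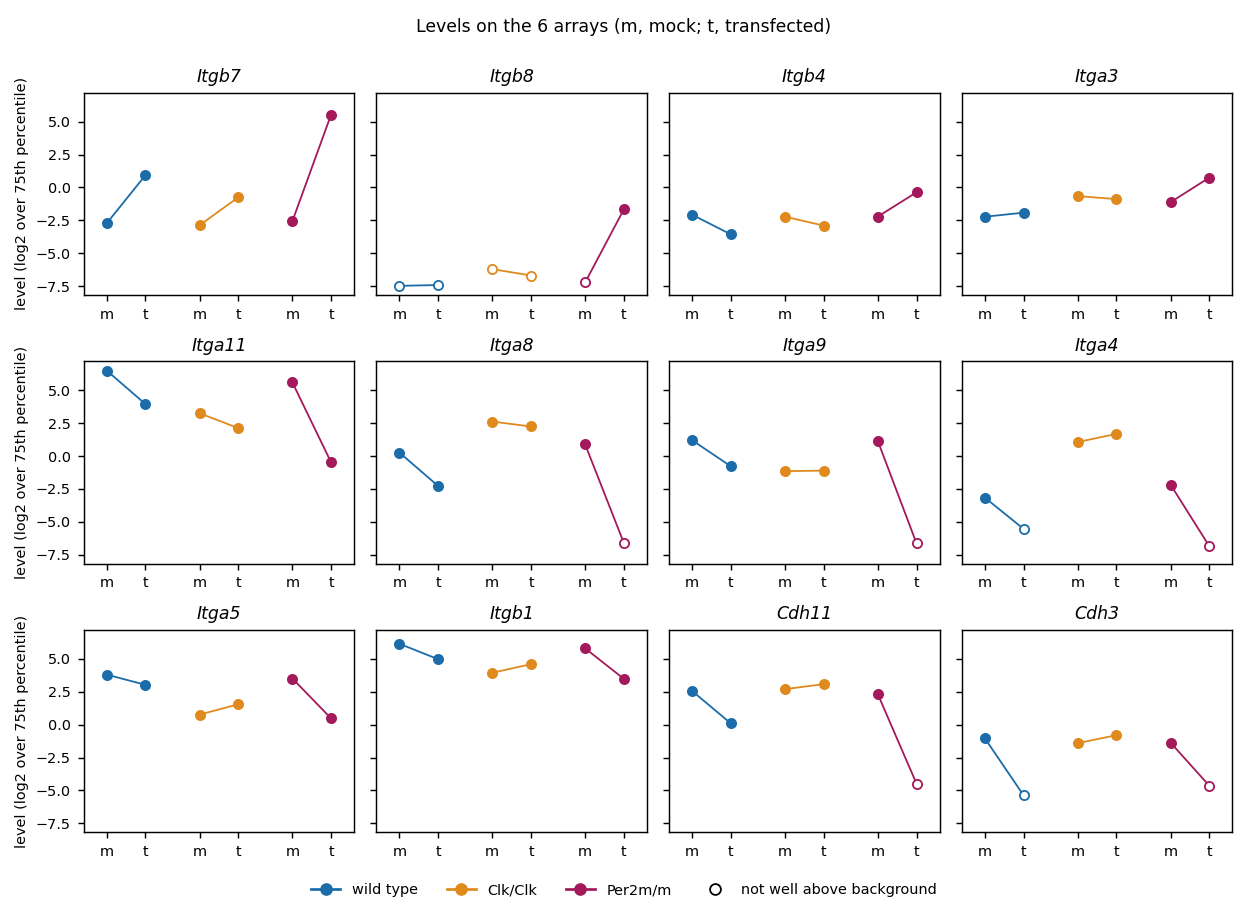
Level of the members the account turns on, on each of the 6 arrays (log2, relative to the 75th percentile of the array), mock joined to transfected within a genotype; open symbols are dim arrays. Itgb7 lies between -2.88 and -2.56 in mock cells and at 5.54 in transfected Per2m/m cells, while Itga11, Itga8 and Itga9 lie lowest there.

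Itga4 and Itga9, relatives that bind VCAM-1, the fibronectin splice region and tenascin, differed by genotype. Itga4 went from -3.16 to a dim -5.54 in wild type, from 1.06 to 1.68 in Clk/Clk and from -2.17 to a dim -6.84 in Per2m/m cells. Both Clk/Clk arrays were thus above the other 4, and transfected cells were at least 4.96-fold lower for wild type and at least 5.37-fold lower for Per2m/m cells. Itga9 went from 1.20 to -0.78 in wild type, from -1.15 to -1.11 in Clk/Clk and from 1.15 to a dim -6.63 in Per2m/m cells. Its response was 3.95-fold lower in wild type, at least 53.3-fold lower in Per2m/m and 1.03-fold higher in Clk/Clk cells.

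Itgb7, the beta subunit of the gut-homing receptors of lymphocytes, had the largest response in Per2m/m cells among members measured on both arrays. It went from -2.73 to 0.93 in wild type, from -2.88 to -0.75 in Clk/Clk and from -2.56 to 5.54 in Per2m/m cells, with all 6 arrays well above background at a probe at chr15:102046450-102046509 (NCBI37). Mock levels were alike in the 3 genotypes, and transfected cells were 12.6-fold higher in wild type, 4.37-fold in Clk/Clk and 274-fold in Per2m/m cells. Across the alternative scalings, background corrections and tables the log2 response stayed between 2.86 and 3.97, 1.28 and 2.32, and 7.25 and 8.37 in the 3 genotypes. Of its known partners, Itga4 was dim in transfected wild type and Per2m/m cells and at 1.68, its highest level, in transfected Clk/Clk cells, and Itgae was well above background on no array. Of 10 lymphocyte markers, 4 were measured, on all arrays, with a summed level (linear, in units of the 75th percentile) that went from 3.30 to 3.37 in wild type, from 4.44 to 4.21 in Clk/Clk and from 3.82 to 4.62 in Per2m/m cells. Only Lck passed 2-fold, 2.83-fold higher in transfected wild type cells (-3.19 to -1.69), where 7.5% of all genes were higher. The part of lymphocytes in the Itgb7 values was not tested.

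The beta-2 integrins of leukocytes showed no common direction. Itgb2, the shared beta subunit, went from -2.37 to -3.00 in wild type, from -2.43 to -2.86 in Clk/Clk and from -2.19 to -0.49 in Per2m/m cells, 3.24-fold higher in transfected Per2m/m cells. Itgam, the alpha subunit of the complement receptor CR3, went from 5.22 to 4.27 in wild type, from 5.77 to 5.65 in Clk/Clk and from 5.26 to 3.51 in Per2m/m cells. That is 3.35-fold lower in Per2m/m cells at its brightest probe, while its 2 other probes gave -0.61 and 0.20 (log2). The level of Itgam also depended on the probe, since those 2 read -3.41 and -4.19 in mock wild type cells, against 5.22 at the brightest. Itgax, the dendritic cell and macrophage subunit, was at -2.08 in mock Per2m/m cells and dim on the 5 other arrays, between -7.50 and -6.44, at least 5.69-fold lower in transfected Per2m/m cells. Itgal, the LFA-1 alpha subunit, had responses of 0.00 (wild type), -0.33 (Clk/Clk) and 0.12 (Per2m/m) at its brightest probe. A second Itgal probe, also well above background on every array, gave 1.29 in Per2m/m cells, past 2-fold.

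Most macrophage markers were also lower in transfected than in mock Per2m/m cells. By at least 2-fold, 11 of 13 were lower (20.8% of all genes) and none higher (18.7% of all genes). All 13 were well above background in mock Per2m/m cells, against 6 in transfected Per2m/m cells. Their number went from 10 to 6 in wild type and from 7 to 6 in Clk/Clk cells. Their summed level went from 17.6 to 6.41 in Per2m/m, from 9.58 to 4.52 in wild type and from 6.27 to 6.22 in Clk/Clk cells. Tyrobp was at least 27.8-fold and Cx3cr1 at least 11.5-fold lower after transfection of Per2m/m cells, while Cd14 had a response of 0.98. In wild type cells, where both Itgax arrays were dim, 8 markers were lower (11.8% of all genes) and 2 higher (7.5% of all genes). Set against mock wild type cells, mock Per2m/m cells had 9 of the 13 markers higher (4.39% of all genes) and none lower (4.33% of all genes). The part of macrophages in the Itgax and Itgam values was not tested.

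Among the type I cadherins, Cdh2 (N-cadherin), the main cadherin of mesenchymal cells, was well above background on every array between 4.14 and 5.18 and passed 2-fold in no genotype. Cdh3, P-cadherin, went from -1.03 to a dim -5.36 in wild type, from -1.40 to -0.79 in Clk/Clk and from -1.36 to a dim -4.63 in Per2m/m cells. It was at least 20.1-fold and at least 9.40-fold lower in transfected wild type and Per2m/m cells, and similar in both Clk/Clk arrays. Cdh1 (E-cadherin), the main epithelial cadherin, was dim on 5 arrays between -7.49 and -6.54 and at -3.29 in transfected Per2m/m cells, at least 3.24-fold over mock.

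Cdh4, R-cadherin, went from -4.81 to a dim -7.44 in wild type, from -1.50 to -2.77 in Clk/Clk and from -4.93 to -6.43, both dim, in Per2m/m cells. It was highest in the Clk/Clk arrays, where transfected cells were 2.41-fold lower, and at least 1.58-fold lower in transfected wild type cells. Cdh15, the M-cadherin of muscle precursors, went from -3.59 to -4.69 in wild type, from -3.36 to -2.94 in Clk/Clk and from -3.58 to a dim -6.47 in Per2m/m cells. It was 2.14-fold lower for wild type and at least 2.02-fold lower for Per2m/m cells, or -0.47 and -0.26 (log2) with normexp. Of 6 skeletal muscle markers, Des and Chrna1 were measured, both well above background in mock wild type and mock Per2m/m cells, 1 in each of their transfected counterparts and neither in Clk/Clk cells. Their summed level went from 0.277 to 0.0680 in wild type and from 0.575 to 0.0686 in Per2m/m cells, and their part in the Cdh15 values was not tested.

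Epithelial markers other than Cdh1 differed among themselves. Of 12 listed, 9 were measured and 7 were well above background on each array. Their summed level went from 2.26 to 0.877 in wild type, from 1.07 to 0.880 in Clk/Clk and from 4.90 to 6.77 in Per2m/m cells. In transfected Per2m/m cells 3 were higher than in mock (18.7% of all genes), Krt14 104-fold, Krt8 at least 5.24-fold and Grhl2 at least 3.25-fold. Lower were 2 (20.8% of all genes), Krt19 at least 87.9-fold and Krt18 at least 15.9-fold. Krt5, Cldn4, Cldn7 and Esrp1 stayed under 2-fold there, and Epcam was not among the measured genes. Their part in the Cdh1, Itgb4 and Itgb8 values was not tested.

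Of the 9 type II cadherins, 5 were lower (20.8% of all genes) and 1 higher (18.7% of all genes) in transfected Per2m/m cells. Cdh11, the cadherin of mesenchyme and synovial fibroblasts, went from 2.56 to 0.10 in wild type, from 2.70 to 3.09 in Clk/Clk and from 2.32 to a dim -4.48 in Per2m/m cells. It was 5.52-fold lower for wild type and at least 111-fold lower for Per2m/m cells, from mock levels that differed by less than 2-fold. Cdh10, a neural cadherin, went from -0.74 to -3.01 in wild type, from -4.36 to a dim -5.89 in Clk/Clk and from -0.97 to a dim -5.80 in Per2m/m cells. Its response was -2.26 (log2) in wild type cells, at least 12.3-fold lower for Per2m/m cells, and bounded at 1.08-fold lower in Clk/Clk cells.

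Cdh6, K-cadherin of kidney, went from -1.37 to -1.39 in wild type, from -4.03 to -4.05 in Clk/Clk and from -1.61 to a dim -4.66 in Per2m/m cells, at least 7.88-fold lower for Per2m/m cells and with a response of -0.02 in both other genotypes. Cdh18, mainly a brain cadherin, went from -2.14 to -2.07 in wild type, from -4.75 to -5.20, both dim, in Clk/Clk and from -1.32 to a dim -6.53 in Per2m/m cells. Only in Per2m/m cells did it pass 2-fold, at least 9.66-fold lower. Cdh9 went from -5.04 to a dim -5.99 in wild type, from -4.24 to a dim -4.28 in Clk/Clk and from -4.50 to a dim -6.75 in Per2m/m cells, with a bound of 1.06-fold in Per2m/m cells.

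Cdh22, another brain cadherin, was higher in transfected Clk/Clk and Per2m/m cells. It went from -5.30 to -5.74, both dim, in wild type, from a dim -6.89 to -4.02 in Clk/Clk and from a dim -7.06 to -2.43 in Per2m/m cells. The bounds were at least 5.89-fold in Per2m/m and at least 1.52-fold in Clk/Clk cells. Cdh20 was at -3.68 in transfected Clk/Clk cells and dim elsewhere, between -7.39 and -5.08, with a bound of 1.93-fold. Cdh8 and Cdh12 passed 2-fold in no genotype.

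Of the cadherins outside the classical types, Cdh13 (T-cadherin), which is held to the membrane by a lipid anchor and has no cytoplasmic tail, showed the most contrast. It went from -0.02 to 0.96 in wild type, from a dim -5.02 to -3.80 in Clk/Clk and from 0.50 to a dim -4.38 in Per2m/m cells. Transfected Per2m/m cells were at least 29.5-fold lower, transfected wild type cells 1.97-fold higher and transfected Clk/Clk cells at least 1.77-fold higher. Cdh16, the kidney-specific cadherin, was above background in mock Per2m/m cells (-3.47) and dim on the other arrays, between -7.64 and -5.54, at least 2.17-fold lower in transfected Per2m/m cells. Cdh17, the liver-intestine cadherin, was above background in mock wild type cells (-4.34) and dim elsewhere, between -7.08 and -5.71, at least 2.19-fold lower in transfected wild type cells. With normexp both responses were under 2-fold, -0.38 and -0.52 (log2). Cdh26 ranged from -0.77 to -0.02.

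Before transfection, Clk/Clk cells differed from wild type in more members than Per2m/m cells did. The 2 comparisons share the mock wild type array and their difference in count was not tested. In mock Clk/Clk cells 14 members were lower (10.7% of all genes) and 4 higher (10.1% of all genes). Those lower included the fibronectin and vitronectin receptor subunits Itga5 (8.22-fold), Itgb1 (4.60-fold), Itgb3 (3.63-fold) and Itgav (2.86-fold), and also Itga11 (9.47-fold), Itga9 (5.10-fold) and Itga10 (2.02-fold). Cadherins lower in mock Clk/Clk cells were Cdh13 (at least 24.3-fold), Cdh10 (12.3-fold), Cdh6 (6.32-fold) and Cdh18 (at least 5.60-fold). Itga2, Itgb6 and Cdh17 completed the 14, with bounds under 2-fold or none. The 4 higher were Itga4 (18.7-fold), Cdh4 (9.95-fold), Itga8 (5.13-fold) and Itga3 (2.96-fold).

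In mock Per2m/m cells 6 members were higher than in wild type (4.39% of all genes) and 3 lower (4.33% of all genes). The 6 were Itgax (at least 9.04-fold), Cdh16 (at least 3.44-fold), Cdh12 (2.74-fold), Itga2 (2.38-fold), Itga6 at its brighter probe (2.15-fold) and Itga3 (2.15-fold). Itga1 (2.32-fold), Itga2b (at least 2.33-fold) and Cdh17 (at least 1.57-fold) were lower.

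**Figure D3:**
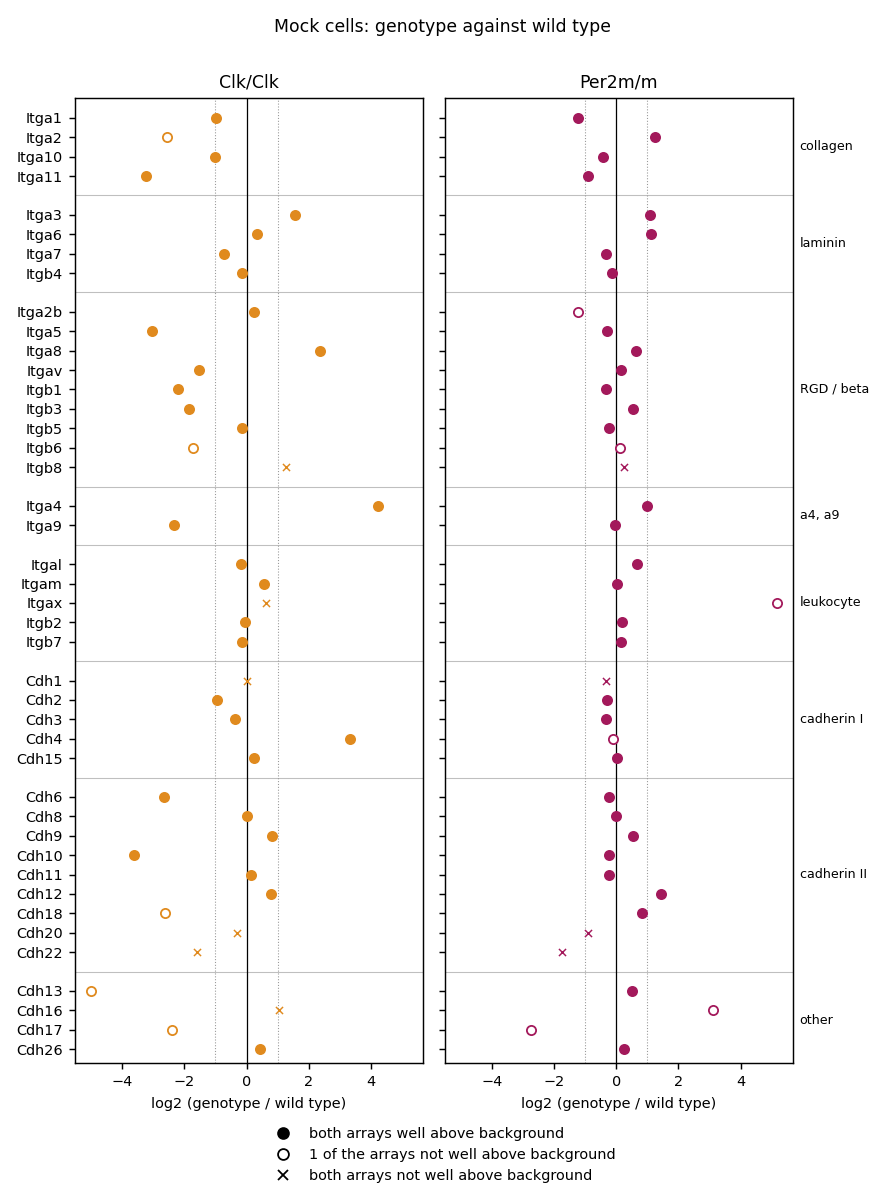
Mock cells of each mutant genotype against mock wild type cells (log2 difference) for the 42 genes; dotted lines mark 2-fold, open circles have 1 dim array and crosses 2 dim arrays. Among the circles, 14 genes lie past the left line and 4 past the right for Clk/Clk, with 3 and 6 for Per2m/m cells.

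Among transfected cells, Clk/Clk had 11 members higher than wild type (13.3% of all genes) and 8 lower (11.2% of all genes). Itga4 (at least 142-fold), Cdh3 (at least 23.7-fold) and Itga8 (23.0-fold) differed most among those higher, while Cdh11 was 7.93-fold and Itga7 5.33-fold higher. Cdh13 was 27.1-fold, Cdh6 6.31-fold and Itgb7 3.20-fold lower there. Transfected Per2m/m cells had 8 members higher than transfected wild type cells (14.7% of all genes) and 13 lower (16.3% of all genes). Those higher were Itgb7 (24.4-fold), Itgb8 (at least 13.8-fold), Itgb4 (9.17-fold), Cdh22 (at least 8.21-fold), Itga3 (6.32-fold), Itgb2 (5.69-fold), Cdh1 (at least 4.51-fold) and Itga2b (2.45-fold). Those lower included Cdh13 (at least 40.4-fold), Cdh11 (at least 23.9-fold), Itga11 (21.6-fold), Itga9 (at least 14.0-fold), Itga5 (5.88-fold), Itga7 (5.32-fold) and Itgb1 (2.81-fold).

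An additive model of genotype and transfection over all 6 arrays (limma) asked which genes moved by a like amount in every genotype. With 2 residual degrees of freedom, its p-values measure only the spread between these 6 samples, and no member and none of the 16674 genes passed an adjusted p of 0.05 for transfection, for Per2m/m or for Clk/Clk. For transfection, 5 members had an unadjusted p under 0.05 (4.68% of all genes, 2.13% higher and 2.55% lower), Itgb7 at 4.63 ± 1.32 (SE, log2), Itga11 at -3.25 ± 1.09, Cdh10 at -2.87 ± 0.76, Cdh4 at -1.80 ± 0.39 and the brighter Itga6 probe at -0.90 ± 0.29, each with limma's adjusted p of 0.692. Itgb7 was higher, and Itga11 and Cdh10 lower, in transfected cells of 3 of 3 genotypes, and Cdh4 was lower in 2, with both its Per2m/m arrays dim. Against dim arrays, Cdh10 in Clk/Clk cells was bounded at only 1.08-fold lower and Cdh4 in wild type cells at 1.58-fold lower. For Per2m/m against wild type, 3 members did (2.22% of all genes, 1.07% higher and 1.15% lower), Itga3 at 1.88 ± 0.63 and Itga1 at -1.04 ± 0.35, each with limma's adjusted p of 0.932, and Cdh16, whose estimate is not given because 5 of its 6 arrays were dim. For Clk/Clk against wild type, 3 did (9% of all genes, 5.67% higher and 3.33% lower), Itga4 at 5.72 ± 1.39, Cdh4 at 4.00 ± 0.47 and Cdh10 at -3.25 ± 0.93, with limma's adjusted p of 0.456, 0.264 and 0.526.

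Of the 42 members, 25 had 1 probe on the array and 13 had at least 2 probes above background. Where the brightest probe passed 2-fold, 14 responses of other probes, over the 3 genotypes together, could be set beside it, and 12 had the same sign. Both exceptions, the second Itga6 probe and 1 Itgam probe, were in Per2m/m cells.

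**Figure D4:**
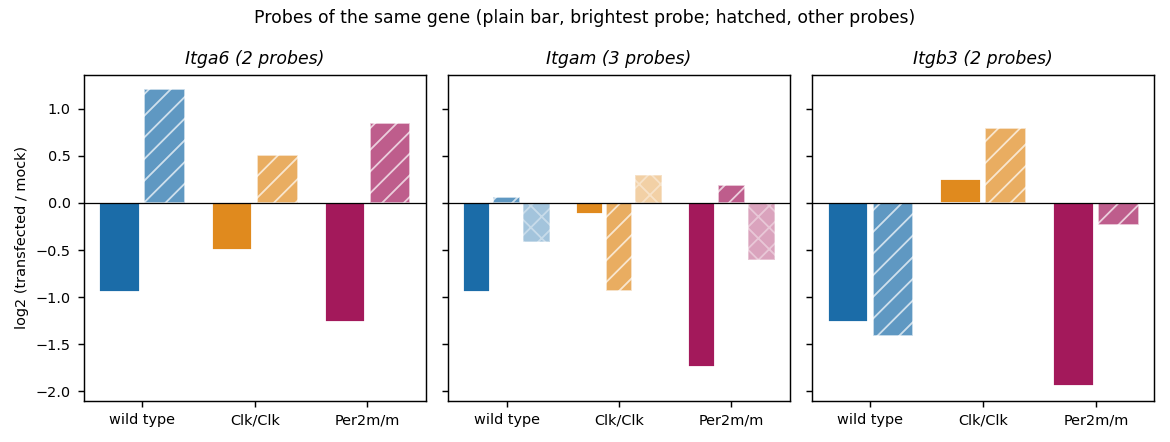
Responses (log2, transfected over mock) in each genotype by every probe of Itga6, Itgam and Itgb3, with plain bars for the brightest probe and hatched bars for the others. The Itga6 probes lie on opposite sides of 0 in all 3 genotypes, and the Itgb3 probes read -1.94 and -0.24 in Per2m/m cells.

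The adaptors that tie integrin tails to actin were mostly lower in transfected Per2m/m cells too. Of 26 measured adaptors 17 were at least 2-fold lower there and none higher, with a median response of -1.65, where 20.8% of all genes were lower and the median of all genes was 0.12. In wild type cells 4 adaptors were lower (11.8% of all genes) and 1 higher (7.5% of all genes), with a median of -0.34. In Clk/Clk cells 0 were lower (4.12% of all genes) and 1 higher (3.74% of all genes), with a median of 0.23. Tns1, the focal adhesion protein tensin-1, was 5.68-fold lower in wild type and 5.59-fold lower in Per2m/m cells, and Lims2, which joins ILK to growth factor receptors, 4.30-fold and 12.0-fold. Fermt3, the kindlin of blood cells, was 2.19-fold lower for wild type and at least 1.97-fold lower for Per2m/m cells. Tgfb1i1 (Hic-5), a paxillin relative, was 9.37-fold lower in Per2m/m cells, and the 2 adaptors with the highest responses there were Tln2, a talin, at 0.74 and Lims1 at 0.25 (log2).

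Integrin ligands also stood lower more often than higher there, with 16 of 26 lower and 3 higher in Per2m/m cells (median -1.75), 7 lower and 2 higher in wild type cells (median -0.56), and 2 lower and 6 higher in Clk/Clk cells (median 0.28). Of all genes, 20.8% were lower and 18.7% higher in Per2m/m cells, 11.8% and 7.5% in wild type cells, and 4.12% and 3.74% in Clk/Clk cells. Thbs1, a matrix glycoprotein, was 4.83-fold lower in wild type and 1339-fold lower in Per2m/m cells, and Tnc, the tenascin bound by alpha-9, 7.81-fold and at least 106-fold. The basement membrane chains Lama2 (5.66-fold and at least 275-fold), Lama1 (9.10-fold and at least 13.2-fold), Col4a1 (2.61-fold and 694-fold) and Col4a2 (2.87-fold and 334-fold) were lower in both, as was Fbn1, the microfibril protein (2.70-fold and 6.36-fold). Lamb3, a chain of the laminin-332 bound by alpha-3 and alpha-6 beta-4, was 2.72-fold and 4.02-fold higher, and Spp1, the RGD protein osteopontin, 2.37-fold and 3.89-fold.

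Of 12 measured cytoplasmic partners of cadherins, 3 were lower and 2 higher in Per2m/m cells (median 0.04), 1 lower and 1 higher in wild type cells (median -0.26), and 2 lower and 1 higher in Clk/Clk cells (median 0.14). The shares over all genes were 20.8% lower and 18.7% higher for Per2m/m cells, so the count of partners there lay near them. For wild type cells they were 11.8% lower and 7.5% higher, and for Clk/Clk cells 4.12% and 3.74%. The same shares stand beside the repressors and junction genes that follow. Ctnna2, the neural alpha-catenin, was at least 71.6-fold lower for wild type and at least 6.03-fold lower for Per2m/m cells, and Ctnnd2, a neural delta-catenin, at least 12.4-fold lower for Per2m/m cells. Mllt4 (afadin), which links nectins to actin, was 7.76-fold and Pkp4 2.55-fold higher in Per2m/m cells. Among the 8 repressors of E-cadherin transcription, 2 were higher and 1 lower in Per2m/m cells, 1 higher in wild type and none in Clk/Clk cells, with medians of 0.18, 0.29 and 0.02. Tcf3 (E2A) was higher by 2.33-fold in wild type and by 2.03-fold in Per2m/m cells, Snai2 (Slug) 2.44-fold higher and Snai1 (Snail) 3.18-fold lower in Per2m/m cells. Of 11 desmosome and tight junction genes 5 were lower in Per2m/m cells and none higher (median -1.16), F11r (JAM-A) 65.5-fold lower, and Dsc2, a desmosomal cadherin, at least 3.99-fold and at least 2.94-fold lower in wild type and Per2m/m cells. Dsp (desmoplakin) was 3.30-fold higher in wild type cells and at least 2.94-fold lower for Per2m/m cells. No gene of these lists passed limma's adjusted p of 0.05. At limma's unadjusted p under 0.05 for transfection stood 3 of 26 ligands, 1 of 12 cadherin partners and no gene of the other lists. Of all genes 4.68% did.

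**Figure D5:**
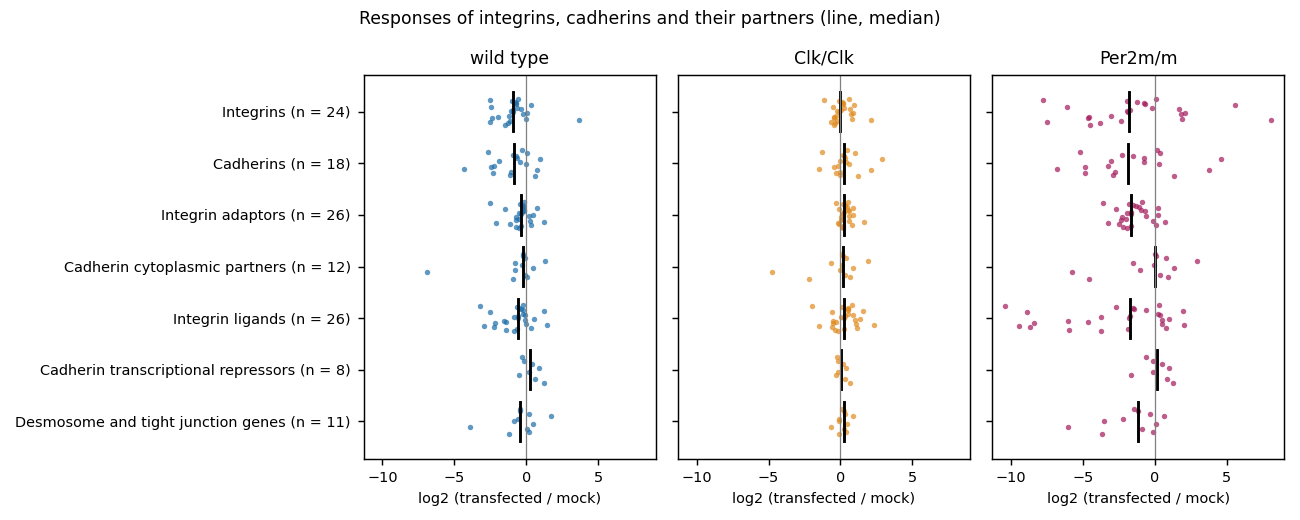
Responses (log2, transfected over mock) in each genotype for the 24 integrins, the 18 cadherins and the genes of 5 related lists, 1 point per gene with the median as a line. In Per2m/m cells the adaptor and ligand medians are -1.65 and -1.75, and in Clk/Clk cells 0.23 and 0.28.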

How the data were processed

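Total RNA of 6 samples was measured on 1-colour arrays, and groups were taken from the sample titles, with 1 array per group. The deposited scanner files hold an intensity per spot, background-subtracted and detrended by Feature Extraction 10.7.1.1, per the file headers (the submitters' processing notes name 9.5.1.1). The authors' deposited table of intensity values served as an alternative. Outlier spots were left out, spots of a probe averaged, and log2 levels taken relative to each array's 75th percentile. A gene was named where its array name was in RefSeq's gene table (GRCm38.p6), and kept if well above background on at least 1 array, with the brightest probe standing for it. The arrays lay on 1 slide. The additive model was fitted with limma 3.58.1 (R 4.3.3) over all genes with Benjamini-Hochberg adjustment. It was also run on simulated data with the same noise for every gene and the same change in every genotype. That setting is simpler than these data, so it does not show how the model performs on them. The number of arrays limits the precision. Every member is named, and those at least 2-fold apart within a genotype get their level on each array. The members, lists and rules were chosen with earlier results of these data known.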

Additional observations from a re-analysis of the deposited data

Results flagged for a closer look

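Cdh13 stood in opposite directions after transfection in Clk/Clk cells (1.22) and Per2m/m cells (-4.88), a difference of 6.11 on the log2 scale. Each value rests on 1 dim array, so the measured difference is not a bound. As bounds, Cdh13 was at least 1.77-fold higher for Clk/Clk and at least 29.5-fold lower for Per2m/m cells. Itgb4 was higher in Per2m/m cells (1.84) and lower in wild type cells (-1.49), a difference of 3.34, with all 4 arrays well above background. With 1 array per group neither difference was tested.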

How the results depend on the processing

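Lower members in wild type cells numbered 17, and 26 at 1.5-fold, 9 at 4-fold, 11 with median scaling, 10 with normexp and 7 among members above background on all arrays. The higher count of 1 was 4 at 1.5-fold and 3 with median scaling, which moved the median response of all genes to 0.32 (wild type) and 0.40 (Per2m/m). In Clk/Clk cells the 4 higher were 10 at 1.5-fold and 1 each with normexp, on all arrays or with dim arrays at their bound (chosen after seeing the data), and the 3 lower 0 at 4-fold and 1 each with normexp or on all arrays. In Per2m/m cells the 8 higher were 5 at 4-fold and 4 on all arrays, and the 22 lower were 8 on all arrays. Leaving out each array in turn (1 residual degree of freedom) gave 0 to 3 members past limma's adjusted threshold for Per2m/m against wild type, the 3 being Cdh13, Cdh18 and Itgb8 without the mock Per2m/m array, where 603 of 16674 genes passed and Itgb8 was dim on all arrays but the transfected Per2m/m array. No sign of a response counted at 2-fold turned under any scaling, background correction, table or probe rule run. Of 55 such responses 17 were under 2-fold with normexp, 7 with median scaling, 3 each with quantile normalization and the authors' deposited table, and 2 with probe means. The causes were not tested. The labels give no replicate numbers, so mock and transfected arrays could be paired only by genotype. The additive model does this through its genotype term. Levels near background limit 22 of the 42 members, which were dim on at least 1 array.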

Other observations

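Of 7 measured endothelial markers 6 were above background in mock and 3 in transfected Per2m/m cells, Emcn at least 19.8-fold and Egfl7 81.7-fold lower, against 5 and 5 in wild type and 3 and 4 in Clk/Clk cells. Cdh5, the endothelial cadherin, was above background on no array. Of 4 measured platelet markers Pf4 was at least 5.76-fold and Ppbp 27.0-fold lower in transfected wild type cells, and at least 11.4-fold and 3.82-fold lower in transfected Per2m/m cells, where Itga2b was higher. Of the other lists, 2 mast cell and 4 glial markers were measured, of which 1 and 2 were above background in transfected Per2m/m cells and 1 and 3 in mock Per2m/m cells.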
